A study of Mus musculus with 12 samples.

Results

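Gene-rich cliques are the groups of linked bins in mouse hepatocyte chromatin that list 15 or more distinct gene names. Such groups are called hubs below as a short name, and contact of all their bins at once was not measured. They were chosen by the number of names in the authors' clique tables, on autosomes only, and so were selected on a measured value of the networks themselves. The young network held 167 of them among 5262 autosomal cliques, and the old network held 74 among 5867. Together they made up 241 of the 11374 cliques of the series, X chromosome included.

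The study applied H3K27ac Hi-ChIP, which joins proximity ligation of chromatin with an antibody pull-down of acetylated histone H3 lysine 27, to hepatocytes. The young group was male C57BL/6 mice aged 5 months and the old group was male C57BL/6 mice aged 25 months. The labels name no transgene and no drug. The old animals came from a different colony than the young, so age and colony cannot be told apart. Livers were perfused, digested with collagenase and spun at low speed to pellet hepatocytes, a step that enriches hepatocytes and does not sort them. There were 12 libraries, 6 per age, labelled as 2 replicates per age with 3 batches each. The deposited networks hold 1 list of cliques per age, with no value per library. Every difference between ages below is therefore a description without a replicate check, and no p-value is given. The read depth and the number of valid contacts behind each network were not analysed here, and intervals are 95% Wilson intervals that cover counting error only, because neighbouring bins and cliques are not independent.

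Acetylation of H3K27 marks active enhancers and promoters, and Hi-ChIP on this mark recovers contacts among them. A clique, in the authors' word, is a group of such anchors linked to each other. In gene-dense chromatin the anchors of a hub include many promoters, and housekeeping genes, tandem families of liver enzymes and genes of the major histocompatibility complex are known to lie in such clusters. A node here was a bin of 5 kb, and the listing of a gene does not say that the gene was transcribed. How genes were assigned to nodes is not stated, and it could be checked only for names with a start in the RefSeq promoter table, 2290 of 3988 (57.4%) in young and 1077 of 1752 (61.5%) in old gene-rich cliques. Of these names in the young network, 96.2% (2204 of 2290) had a start inside a node of their own clique and 98.7% had one in or within 1 kb of it. In the old network the shares were 93.8% (1010 of 1077) and 98.1%.

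The promoters of 4 genes of the cliques described below are shown as examples of starts inside a node. Each sequence runs from 250 bases before to 50 bases after a start, is taken from RefSeq on GRCm38.p6, and is written 5′ to 3′ on the gene's strand. Capitals mark matches on either strand to the TATA box (TATAAA), the GC box (GGGCGG), the CCAAT box (CCAAT) and the ETS motif (CCGGAA). The cAMP response element (TGACGTCA) was searched as well and was found in none of the 4. Junb, a subunit of the AP-1 transcription factor, lies at chr8:84978699-84978998 on the minus strand. Rps18, a protein of the small ribosomal subunit, lies at chr17:33955616-33955915 on the minus strand and has Vps52 as a divergent neighbour. These were chosen because their start bin was a node of a gene-rich clique at both ages. Atp5b, the catalytic beta subunit of ATP synthase, lies at chr10:128083057-128083356 on the plus strand, in a bin that was a node of a young gene-rich clique and of no old clique. H2-D1, a classical MHC class I heavy chain, lies at chr17:35262844-35263143 on the plus strand, in a bin that was a node of an old gene-rich clique and of no young clique.
Junb: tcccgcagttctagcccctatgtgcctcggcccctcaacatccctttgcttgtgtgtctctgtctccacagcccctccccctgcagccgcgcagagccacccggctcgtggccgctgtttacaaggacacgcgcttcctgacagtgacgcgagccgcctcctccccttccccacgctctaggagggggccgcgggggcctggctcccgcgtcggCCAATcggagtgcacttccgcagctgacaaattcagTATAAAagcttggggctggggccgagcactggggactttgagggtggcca
Rps18: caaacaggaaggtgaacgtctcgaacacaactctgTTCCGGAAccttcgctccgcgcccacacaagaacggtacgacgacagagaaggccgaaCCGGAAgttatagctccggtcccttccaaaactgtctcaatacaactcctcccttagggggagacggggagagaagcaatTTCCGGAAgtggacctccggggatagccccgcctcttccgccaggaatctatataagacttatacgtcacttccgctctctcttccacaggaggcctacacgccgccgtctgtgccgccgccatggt
Atp5b: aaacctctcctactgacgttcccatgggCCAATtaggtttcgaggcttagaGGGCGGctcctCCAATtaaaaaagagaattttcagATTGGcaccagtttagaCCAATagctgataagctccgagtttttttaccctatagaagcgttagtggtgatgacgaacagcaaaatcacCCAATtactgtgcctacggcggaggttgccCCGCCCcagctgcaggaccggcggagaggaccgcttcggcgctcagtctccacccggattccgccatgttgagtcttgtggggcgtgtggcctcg
H2-D1: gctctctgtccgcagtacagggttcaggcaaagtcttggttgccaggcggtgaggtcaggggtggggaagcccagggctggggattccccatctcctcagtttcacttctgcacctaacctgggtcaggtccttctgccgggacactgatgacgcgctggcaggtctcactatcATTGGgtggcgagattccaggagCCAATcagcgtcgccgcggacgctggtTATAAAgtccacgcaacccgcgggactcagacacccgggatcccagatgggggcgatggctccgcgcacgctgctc
The Junb window held 1 TATA box and 1 CCAAT box, and the H2-D1 window held 1 TATA box and 2 CCAAT boxes. The Atp5b window held no TATA box, 2 GC boxes and 5 CCAAT boxes. The Rps18 window held none of these and 5 matches to the ETS motif, some of which overlap each other on opposite strands. A match is a description of the letters and not evidence of a bound factor.

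Across the 2049 protein-coding promoters matched in young gene-rich cliques, of 2537 protein-coding names, the median ratio of observed to expected CpG was 0.72 and the median GC content was 59.3%. In the 4805 promoters of the remaining young cliques these medians were 0.77 and 61.0%, in all 17492 protein-coding promoters of the table they were 0.58 and 56.3%, and in the 9802 promoters in no clique of either age 0.34 and 51.7%. The promoters of gene-rich cliques thus lay close to those of other cliques, on the CpG-poorer side of them, and far from promoters outside the networks. A TATA box was present in 8.88% of the promoters of young gene-rich cliques, 7.10% of those of the remaining cliques and 13.3% of the whole table. The GC box was present in 59.3%, 63.2% and 46.3%, the ETS motif in 27.6%, 28.3% and 19.1%, the CCAAT box in 39.1%, 38.3% and 39.0%, and the cAMP response element in 3.32%, 3.35% and 2.34%. The 983 promoters of old gene-rich cliques had a median CpG ratio of 0.70, against 0.76 in the remaining old cliques. A divergent partner, meaning a protein-coding start on the other strand within 1 kb, was found for 16% (328 of 2050) of the protein-coding genes of young gene-rich cliques and for 14% of those of the remaining cliques. In 315 of those 328 cases the partner was listed in the same clique. Starts within 1 kb fall in the same or an adjacent 5 kb bin, so this count is largely set by the definition.

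The gene-rich cliques were few but large. They were 3.17% of the young and 1.26% of the old autosomal cliques, and they held 18.7% (10537 of 56365) of the young and 9.12% (3647 of 39968) of the old nodes. Their share of listed names was 27.9% in the young network and 15.4% in the old. For protein-coding names, the shares were 29.7% and 17.1%. These shares are the background for every count below of named genes that were in gene-rich cliques. Properties that the choice did not use directly, node number and span, were wide: a young gene-rich clique held 14 to 193 nodes, with a median of 58, and an old one 13 to 160, with a median of 44.5. The number of names, on which they were chosen, was 15 to 87 in the young and 15 to 69 in the old network, with a median of 20 in both. At the threshold, 20 young and 10 old cliques listed exactly 15 names, and 21 young and 15 old cliques just outside it listed 14.

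**Figure D1:**
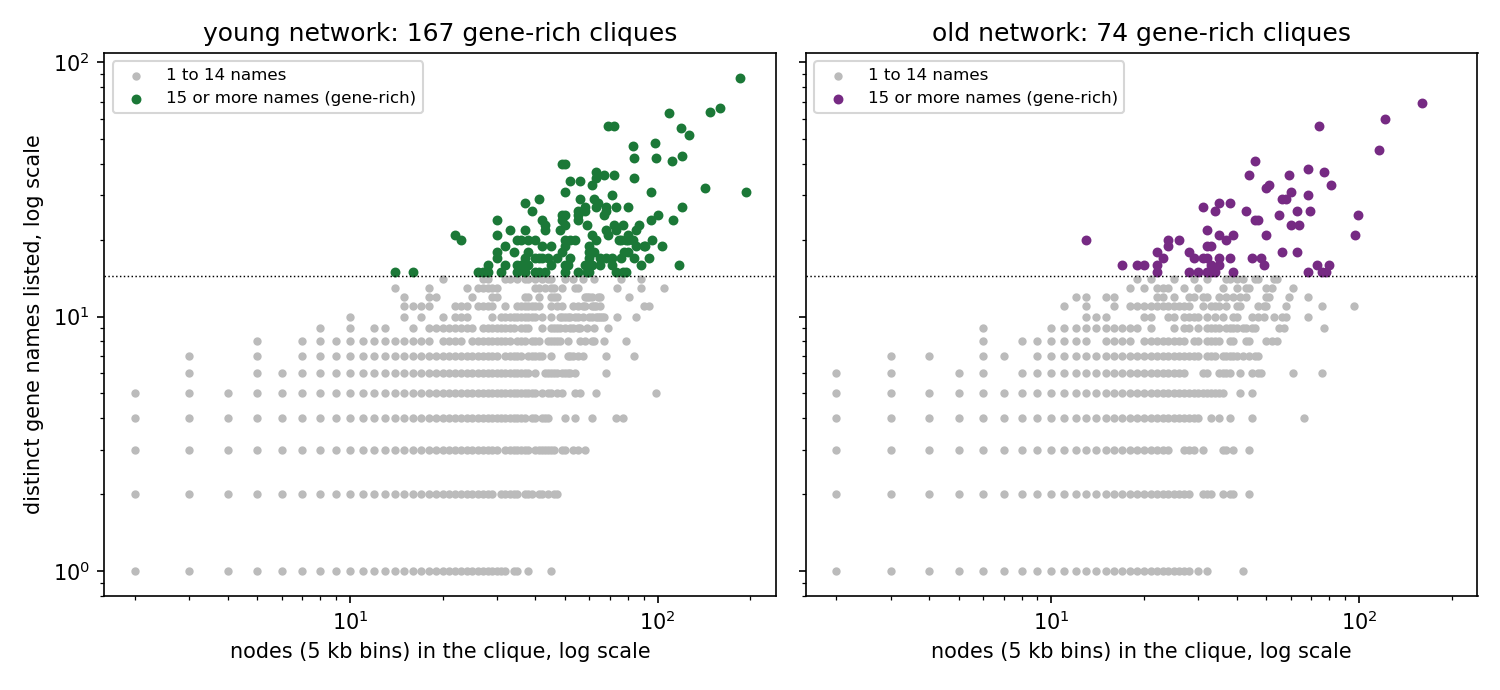
Nodes (5 kb bins, log scale) against distinct gene names (log scale) of every autosomal clique that lists a name, in the young (left) and old (right) network. Coloured points, above the dotted line, are the 167 young and 74 old cliques with 15 or more names, and points can overlap where cliques have the same values.

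Nodes per name, the number of bins in a clique divided by its distinct names, had a median of 2.47 in young gene-rich cliques (range 0.93 to 7.31) and of 1.93 in old ones (0.65 to 5.20). This order depends on the scale, because young cliques were larger as a whole: with node numbers divided by the mean clique size of the age (10.5 young, 6.75 old), the medians were 0.23 in the young and 0.29 in the old network, and the order turned. With protein-coding names only the medians were 3.02 nodes per name in the young and 2.60 in the old. Span, the distance from the first to the last node, had a median of 585 kb in the young (175 to 1960 kb) and 497.5 kb in the old network (165 to 1730 kb). The clique's own nodes covered a median of 51.7% of this span in the young and 46.2% in the old. The rest of each span was chromatin in no node of that clique, so that neighbouring cliques could interleave.

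The spans were dense in genes, as a choice on names makes likely. The median density of annotated protein-coding genes was 33.8 per Mb in young and 47.2 per Mb in old gene-rich cliques. A median of 75% of the annotated protein-coding genes in a young span were listed by its clique, and 70.3% in an old span. Among 60 young gene-rich cliques and 81 cliques with fewer names that all had 50 to 74 nodes, the median density was 35.7 and 11.4 genes per Mb, and the median share of nodes that hold a protein-coding start was 19.9% and 4.11%. Most bins of a gene-rich clique therefore held no protein-coding start: 1934 of 10537 young nodes (18.4%) and 903 of 3647 old nodes (24.8%) held one. Names outside the protein-coding set were also part of the choice. Of the 82 small nucleolar RNAs listed in the young network, which are often encoded in introns of ribosomal protein genes, 44 (53.7%, interval 42.9 to 64.0%) were in a gene-rich clique, and of the 346 microRNAs 117 (33.8%, 29 to 39%) were. In the old network these were 20 of 59 (33.9%) and 66 of 288 (22.9%). Gene models named Gm with a number were in gene-rich cliques in 23.5% of 4212 young and 11.5% of 3053 old listings, below the background of all names at both ages.

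Gene-rich cliques were found on 18 of the 19 autosomes in the young network. Chromosome 11 held the most, with 16 young and 9 old, and chromosome 7 held 14 and 9. Chromosome 17, which carries the mouse MHC, held 11 and 7, and chromosome 5 held 14 and 3. Chromosome 12 held none at either age, among 246 young and 236 old cliques. Chromosome 18 held 3 young and 0 old. On chromosomes 7, 10, 11, 15, 17 and 19 between 23.3% and 26.8% of the young nodes lay in gene-rich cliques. On chromosome 16 it was 8.61% and on chromosome 18 it was 6.76%.

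The clique with most names lay on chr10:79815001-81185000 at the young age, with 185 nodes and 87 names, 67 of them protein-coding. It lists Gadd45b, a stress-induced regulator of growth arrest, the ribosomal protein gene Rps15, the splicing factor Sf3a2, and the respiratory chain genes Atp5d, Ndufs7 and Uqcr11. Its best match at the old age, the clique that shares the highest proportion of nodes with it, was the old clique with most names, of 160 nodes and 69 names. The match was measured by the Jaccard index, which is the bins in common as a proportion of the bins found in at least 1 of the pair, and it was 0.53. All 6 of the genes just named were listed at both ages. A second old clique of 14 nodes took over 10 names from the far end of the young clique, among them Eef2, an elongation factor of translation, and Creb3l3, a liver transcription factor. Another 18 of the 87 names were in no old clique, among them Gpx4, which detoxifies lipid peroxides. Over all young gene-rich cliques, 892 of 3988 names (22.4%) were in no old clique, the background for such counts in single cliques below.

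The next young clique by names, on chr10:127350001-128540000, had 159 nodes and 66 names, and 102 of its nodes were present in 8 old cliques. The old clique that shared most nodes with it had 69 nodes and 26 names, and it kept a run of short-chain dehydrogenases that act on retinol and steroids (Rdh1, Rdh16, Rdh19, Rdh7, Hsd17b6), with Lrp1, an endocytic receptor of the liver, and Stat6. The second, on chr10:128065001-128675000 with 33 nodes and 19 names, held Cs, citrate synthase, and Smarcc2, a subunit of the SWI/SNF remodelling complex. Stat2, which transmits interferon signals, went to an old clique with 11 nodes and 8 names, and Apof and Apon, which encode apolipoproteins, were in one of 4 nodes and 3 names. Atp5b, whose promoter is shown above, was among 13 of the 66 names that no old clique listed.

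The third, on chr7:139965001-141925000, had the longest span of the gene-rich cliques of either age, 1960 kb, with 148 nodes and 64 names. It met 9 old cliques. Of these, 2 were gene-rich: one of 56 nodes and 29 names with Psmd13, a proteasome subunit, Sirt3, a mitochondrial deacetylase, and the interferon-induced Ifitm genes, and one of 46 nodes and 24 names with Rplp2, a ribosomal stalk protein, Polr2l, a subunit shared by the nuclear RNA polymerases, and Pnpla2, the adipose triglyceride lipase. Between them they listed 50 of the 64 names. Cyp2e1, the ethanol-metabolising cytochrome P450 of centrilobular hepatocytes, was in an old clique of 5 nodes in which it was the sole name.

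On chr17:33390001-34210000, at the proximal end of the MHC, a young clique of 49 nodes and 40 names corresponded to 5 old cliques. The best match had 15 nodes and 8 names, with the ribosomal protein gene Rps28, the complex I subunit Ndufa7 and Angptl4, a secreted inhibitor of lipoprotein lipase. Another had 13 nodes, all of them present in the young clique, and 20 names, all of them listed there too: it held H2-K1, a classical class I heavy chain, Tapbp, which loads peptides onto class I molecules, Rps18 and Daxx. At 0.65 nodes per name this was the lowest ratio of the 241 cliques. Tap1 and Psmb9, the peptide transporter and the immunoproteasome subunit whose genes lie side by side, went to an old clique with 2 nodes and 4 names.

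**Figure D2:**
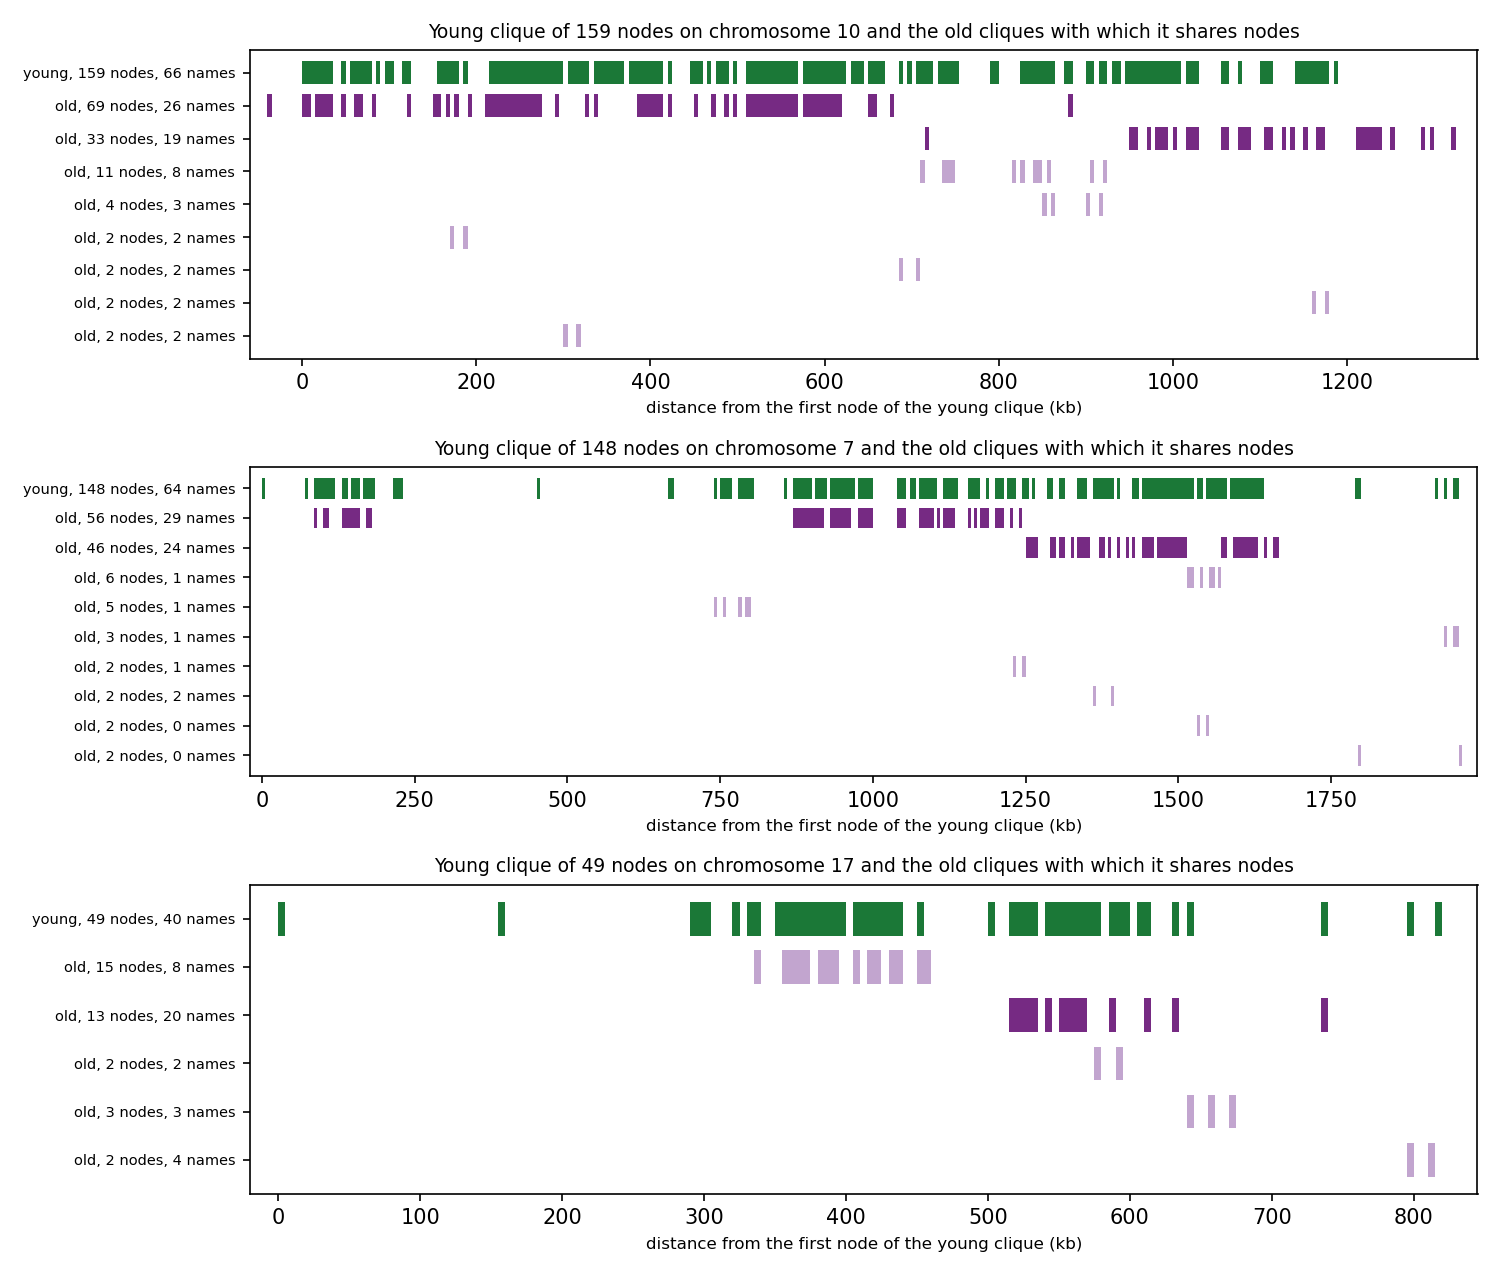
Bins of the 3 young cliques with the largest differences in number of names from their best match with fewer names (66 and 26, 64 and 29, 40 and 8), plotted as distance in kb from the first bin of the young clique (green), with each old clique that shares a bin with it below (dark purple, 15 or more names; light purple, fewer). Young hubs of 159, 148 and 49 nodes correspond to 8, 9 and 5 old cliques, with gaps within each clique into which other cliques fall.

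Other large young hubs divided unevenly as well. The clique of 109 nodes and 63 names on chr17:24135001-25280000, with the ribosomal protein gene Rps2, Ndufb10 and Mrps34, met 8 old cliques, and its best match had 51 nodes and 33 names. On chr6:124400001-125380000 a clique of 119 nodes and 55 names divided into old cliques of 60 nodes with 31 names and 35 nodes with 16 names. The first held the complement proteases C1ra and C1s1 and the glycolytic gene Tpi1, and the second held Gapdh and Tnfrsf1a, a receptor of tumour necrosis factor. On chr19:3265001-4250000 a clique of 126 nodes and 52 names met 6 old cliques, and the old clique of 63 nodes and 26 names kept the glutathione transferases Gstp1, Gstp2 and Gstp3 and Ndufv1. Cpt1a, the gate of mitochondrial fatty acid oxidation, was in a separate old clique of 24 nodes and 6 names.

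Some hubs were nearly the same at both ages. On chr8:84635001-85085000 a young clique of 72 nodes listed 36 names, and the old clique of 59 nodes on chr8:84645001-85085000 listed the same 36. They include the immediate early genes Junb and Ier2, Calr, a chaperone of the endoplasmic reticulum, Nfix and Klf1, and the Jaccard index over nodes was 0.77. The index was 0.81 on chr9:107535001-107710000, where young 33 and old 32 nodes carry the hyaluronidase genes Hyal1, Hyal2 and Hyal3 with Rassf1 and Gnai2, and the names went from 22 to 17. It was 0.80 on chr9:45820001-46290000, where the apolipoprotein cluster Apoa1, Apoc3, Apoa4 and Apoa5, whose products ride on lipoproteins of the blood, lay in 83 young nodes with 20 names and in 68 old nodes with 15 names. The 15 old names were all among the young 20. On chr1:171105001-171575000 the index was 0.75, with 64 young and 55 old nodes, and 25 of the 28 young names, among them Apoa2 and the xenobiotic receptor Nr1i3, were listed in the old match.

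A smaller number of hubs were larger at the old age. On chr17:55955001-57340000 the old clique of 116 nodes and 45 names shared nodes with a young clique of 67 nodes and 25 names (Plin5, a lipid droplet protein, and Rpl36), with another of 30 nodes and 17 names (C3, the central complement component, and Gtf2f1) and with another of 29 nodes and 13 names. On chr7:18895001-19970000 the old clique had 121 nodes and 60 names against 98 nodes and 48 names in the young, with Apoe, Apoc1 and Fosb at both ages. The old clique also listed Relb, a subunit of NF-kappaB that no young clique listed, and Foxa3, a hepatocyte transcription factor that was in a young clique of 7 names. On chr7:44365001-45710000 the old clique had 74 nodes and its young match 72, both listed 56 names, and 41 of these were shared. They include Rpl13a, Irf3 and Dbp, a clock-controlled transcription factor. Fgf21, a fasting hormone of the liver, was in the young clique and in an old clique of 2 nodes and 2 names.

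Of the other old cliques with most names, that on chr4:155460001-156240000 had 68 nodes and 38 names, with the ubiquitin-like interferon product Isg15 and the mitochondrial ribosome gene Mrpl20, and its larger young match had 84 nodes and 42 names. That on chr11:120350001-121180000 had 77 nodes and 37 names, with Fasn, and its young match had 120 nodes and 43 names. On chr19:5730001-6340000 an old clique of 35 nodes and 28 names, with the ribosomal protein gene Fau and Men1, met 3 young cliques. Against the best match, of 21 nodes and 9 names, the order was the other way. Fau itself was in a different young clique, which was gene-rich with 23 nodes and 20 names.

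The central MHC differed in another way. The young clique on chr17:34610001-35260000 had 69 nodes and 56 names and the old one on chr17:34585001-35380000 had 46 nodes and 41 names, with the complement genes C4b, C2 and Cfb and the helicase Ddx39b at both ages and 33 names in common. A separate old clique on chr17:35130001-35345000, with 20 nodes and 16 names, had the lowest best Jaccard index of the old gene-rich cliques, 0.10. It lists the cytokine genes Tnf, Lta and Ltb and H2-D1, and 9 of its 16 names were in no young clique. Over all old gene-rich cliques this was 157 of 1752 names (8.96%). The lowest index of the young ones, 0.097, was on chr7:30170001-30625000. There 30 nodes and 24 names, with Polr2i, a subunit of RNA polymerase II, and Cox7a1, met 9 old cliques of 2 to 9 nodes, and 8 names were in no old clique.

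The most nodes per name were found on chr15:58870001-59870000, where 117 young nodes listed 16 names (7.31 nodes per name), among them Sqle, an enzyme of cholesterol synthesis, and Trib1, a regulator of liver lipid metabolism. The old match had 78 nodes and 15 names (5.20 nodes per name), which was also the highest ratio of the old gene-rich cliques. The clique with most nodes of all, 193 with 31 names on chr3:121155001-122645000, lists F3, tissue factor, Abcd3, a peroxisomal transporter, and Gclm, of glutathione synthesis. It met 6 old cliques, none of them gene-rich. On chr13:24100001-25005000 there were 94 young nodes and 17 names (5.53), with Gpld1, a phospholipase secreted by the liver. Among old cliques, 76 nodes listed 15 names (5.07) on chr17:45505001-46140000, with Vegfa, the endothelial growth factor, and 80 nodes listed 16 names on chr11:93950001-94705000, with Abcc3, a basolateral exporter of conjugates. The last of these had a young match of 76 nodes and 14 names, just outside the gene-rich set.

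At the other end, 14 nodes listed 15 names on chr9:20885001-21150000 (0.93 nodes per name), with Dnmt1, Icam1, Mrpl4 and S1pr2, and 5 of the 14 nodes were present at the old age. On chr19:5090001-5510000, 16 young nodes listed 15 names (1.07), with Cfl1, which severs actin filaments, and the best old match had 8 nodes and 8 names. Among old cliques, 17 nodes listed 16 names (1.06) on chr11:69680001-69920000, with Polr2a, and 14 of the 17 were nodes of a young clique of 61 nodes and 33 names. In the young network, a histone cluster on chr3:96055001-96265000 had 22 nodes and 21 names (1.05), and another on chr13:21945001-23760000 had 50 nodes and 40 names over 1815 kb, of which the nodes covered 13.8%. The old match of the latter had 31 nodes and 27 names over 1730 kb. On chr13:37430001-37965000 a young clique of 90 nodes listed 19 names, none of them protein-coding in the RefSeq table. Its old match had 56 nodes and 10 names.

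Most young hubs had a smaller old match with fewer names. The best match was itself gene-rich for 64 of 167 young gene-rich cliques, listed 10 to 14 names for 51, listed 1 to 9 names for 51 and listed none for 1. In the other direction, the best match was gene-rich for 65 of 74 old gene-rich cliques. Nodes of 148 of the 167 young cliques lay in 2 or more old cliques, against 31 of 74 in the other direction. Division into several gene-rich hubs was rarer: 6 young cliques met 2 or more old gene-rich cliques, 59 met 1 and 102 met none. A choice on the number of names at 1 age favours fewer names in the match, so these counts are a description of the members and not a measure of change.

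Where cliques of both ages were best matches of each other, the sizes can be set side by side. In 61 such pairs both cliques were gene-rich, with a median of 67 nodes young and 46 old and of 27 names young and 21 old. The old clique had fewer nodes in 55 of the 61, fewer names in 44 and fewer nodes per name in 50, and its nodes covered less of its span in 52. The order in nodes per name again rests on raw node numbers and was not taken relative to the mean clique size here. In 102 pairs the young clique alone was gene-rich, with medians of 54.5 and 25 nodes and of 18 and 9 names, and fewer nodes per name at the old age in 47. In 9 pairs the old clique alone was gene-rich, with medians of 24 young and 33 old nodes. Over these 172 pairs the median ratio of old to young was 0.58 for nodes and 0.64 for names. In 368 mutual pairs in which neither clique was gene-rich and the young had 30 or more nodes, it was 0.64 and 0.71, and the old clique had fewer nodes per name in 229 and a lower cover of its span in 262. A smaller old clique was thus the usual case in the pairs chosen here, inside and outside the gene-rich set. The 368 pairs were chosen on young size, with no floor for the old clique, which had as few as 3 nodes. Of the pairs with 1 gene-rich clique, 102 were chosen on the young and 9 on the old. Such a choice favours a smaller old match, so these counts do not measure change.

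The share of nodes that were present at the other age was 67.8% (7146 of 10537, interval 66.9 to 68.7%) for young gene-rich cliques, against 55.8% of all autosomal young nodes. For old gene-rich cliques it was 87.1% (3177 of 3647, 86.0 to 88.2%), against 78.6% of all old nodes. In young cliques with fewer names this share was higher in larger cliques up to 99 nodes, and the choice favours large cliques. It was 56.1% at 10 to 29 nodes and 68.8% at 75 to 99. In old cliques with fewer names it was 87.0% at 10 to 29 nodes and 92.1% at 50 to 74, but 83.7% in the 4 cliques of 75 to 99. Among young cliques of 30 to 49 nodes it was 66.1% in gene-rich cliques and 63.2% in those with fewer names, and among those of 50 to 74 nodes 67.6% and 64.8%. Among old cliques of 30 to 49 nodes it was 88.3% and 90.3%, and of 50 to 74 nodes 88.4% and 92.1%. In these size classes gene-rich cliques thus had the higher share in the young network and the lower share in the old, where the class of 75 to 99 nodes had the opposite order, 87.8% and 83.7%.

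Bins that hold a protein-coding start were found at both ages more often than bins that hold none. In young gene-rich cliques 79.2% (1532 of 1934) of the former and 65.3% (5614 of 8603) of the latter were old nodes. In the remaining young cliques the shares were 67.0% and 51.4%. In old gene-rich cliques they were 91.1% and 85.8%, and in the remaining old cliques 86.4% and 76.6%. The gap was present in all 4 sets, so that it was no property of the gene-rich cliques alone.

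Whole cliques matched less well than their nodes. A best Jaccard index of 0.5 or more was found for 66 of 167 young gene-rich cliques (39.5%, interval 32.4 to 47.1%), against a background of 19.9% of all autosomal young cliques. It was found for 38 of 74 old ones (51.4%, 40.2 to 62.4%), against 17.8% of all old cliques. The background consists mainly of small cliques. Among young cliques of 30 to 49 nodes, 38.5% of 52 gene-rich and 54.3% of 293 others reached the index, and among those of 50 to 74 nodes 43.3% of 60 and 58.0% of 81. Among old cliques of 30 to 49 nodes the shares were 54.8% of 31 and 71.7% of 152, and of 50 to 74 nodes 63.2% of 19 and 72.0% of 25. Gene-rich cliques thus stood above the background of all cliques and, in these 4 size classes, below cliques of like size with fewer names, with intervals that overlap in each. In the class of 10 to 29 nodes the young order was the other way, 37.5% of 8 gene-rich and 34.2% of 1005 others, while the old shares were 14.3% of 14 and 46.8% of 872, with intervals that do not overlap. Cliques of 75 to 99 nodes were few, and there 45.2% of 31 gene-rich and 54.5% of 11 other young cliques reached the index, against 71.4% of 7 and 50% of 4 old ones. In the young classes from 30 to 99 nodes, the nodes of a gene-rich clique lay in a median of 3 old cliques, against 2 for the others. In the young class of 10 to 29 nodes the median was 2 for both. The 16 young gene-rich cliques of 100 or more nodes lay in a median of 7 old cliques, and 18.75% of them reached the index. Only 1 other young clique was of that size.

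**Figure D3:**
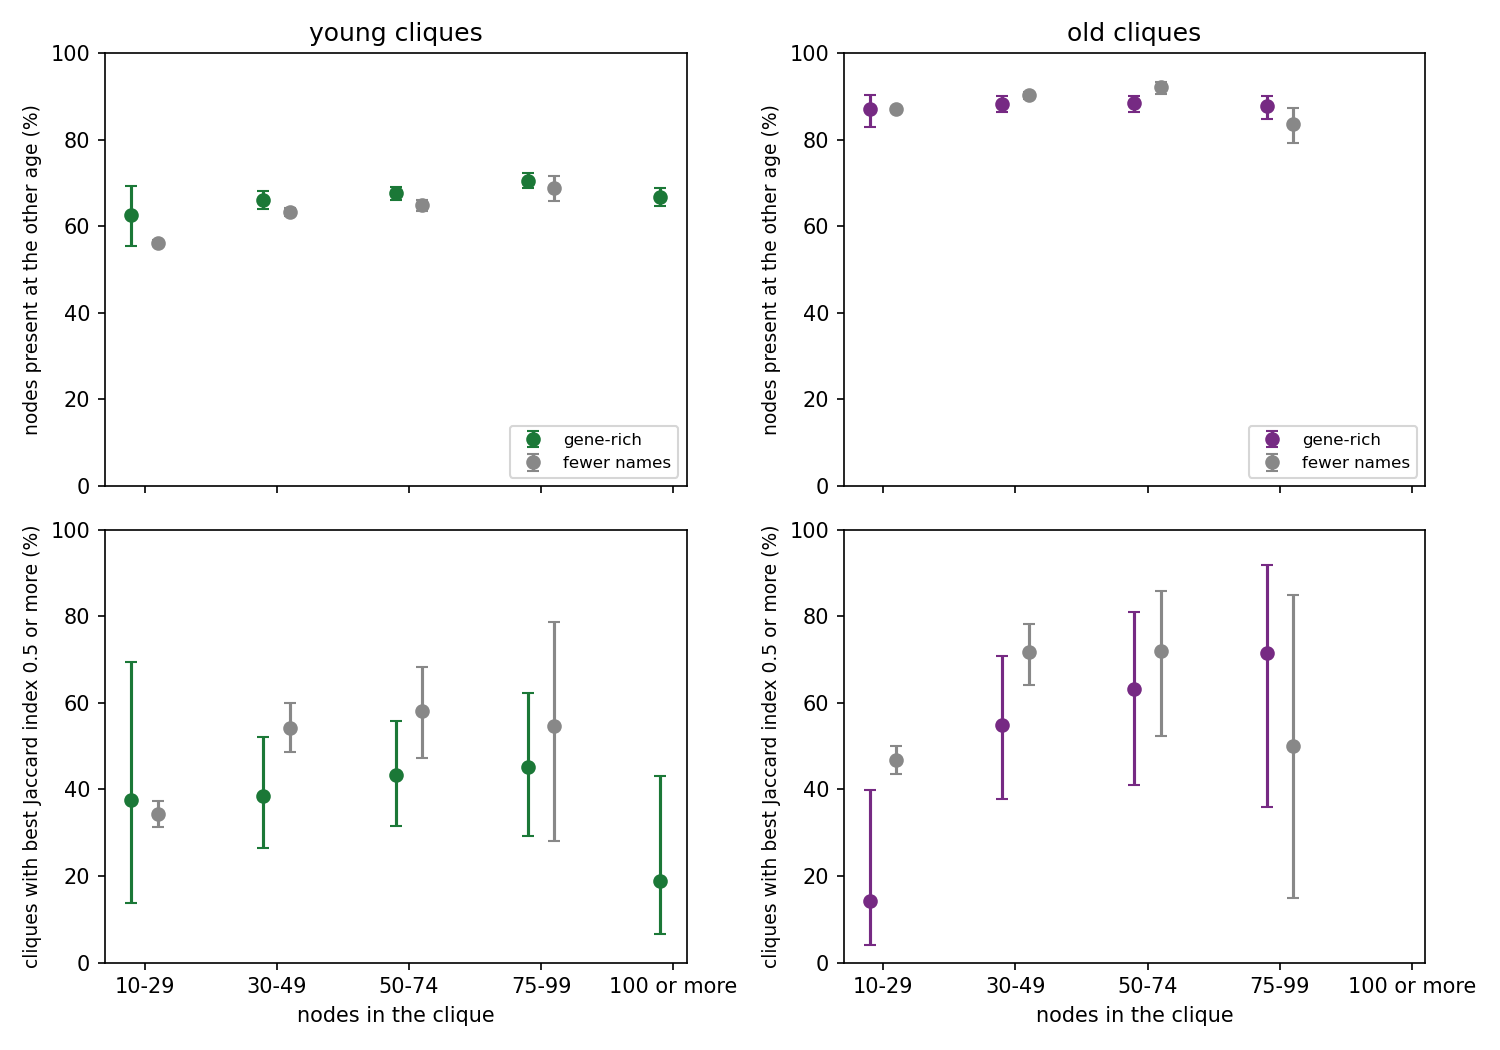
Share of nodes present at the other age (top) and of cliques with a best Jaccard index of 0.5 or more (bottom), by number of nodes, for gene-rich cliques (coloured) and cliques with fewer names (grey) of the young (left) and old (right) network. Bars are 95% Wilson intervals, classes with fewer than 4 cliques are not drawn, and in the class of 30 to 49 nodes the index was reached by 38.5% of young gene-rich and 54.3% of other young cliques.

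Of the 3988 names in young gene-rich cliques, 1429 (35.8%) were in a gene-rich old clique, 1667 (41.8%) in an old clique with fewer names and 892 (22.4%) in no old clique. The same 1429 were 81.6% of the 1752 names of old gene-rich cliques, of which 166 were in a young clique with fewer names and 157 in none. Of the young names outside the old gene-rich set, more were thus listed in an old clique with fewer names than in none. This was not particular to gene-rich cliques, because 64.1% (6618 of 10319) of the names of the remaining young cliques were listed in some old clique. In cliques of 30 to 49 nodes, names of young gene-rich cliques were listed at the old age in 76.8% and names of the others in 74%, and in those of 50 to 74 nodes in 77.2% and 75.5%. Of 499 protein-coding names that no old clique listed, 387 had a start in the promoter table, and 32 of these (8.27%) had a start in an old node all the same.

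**Figure D4:**
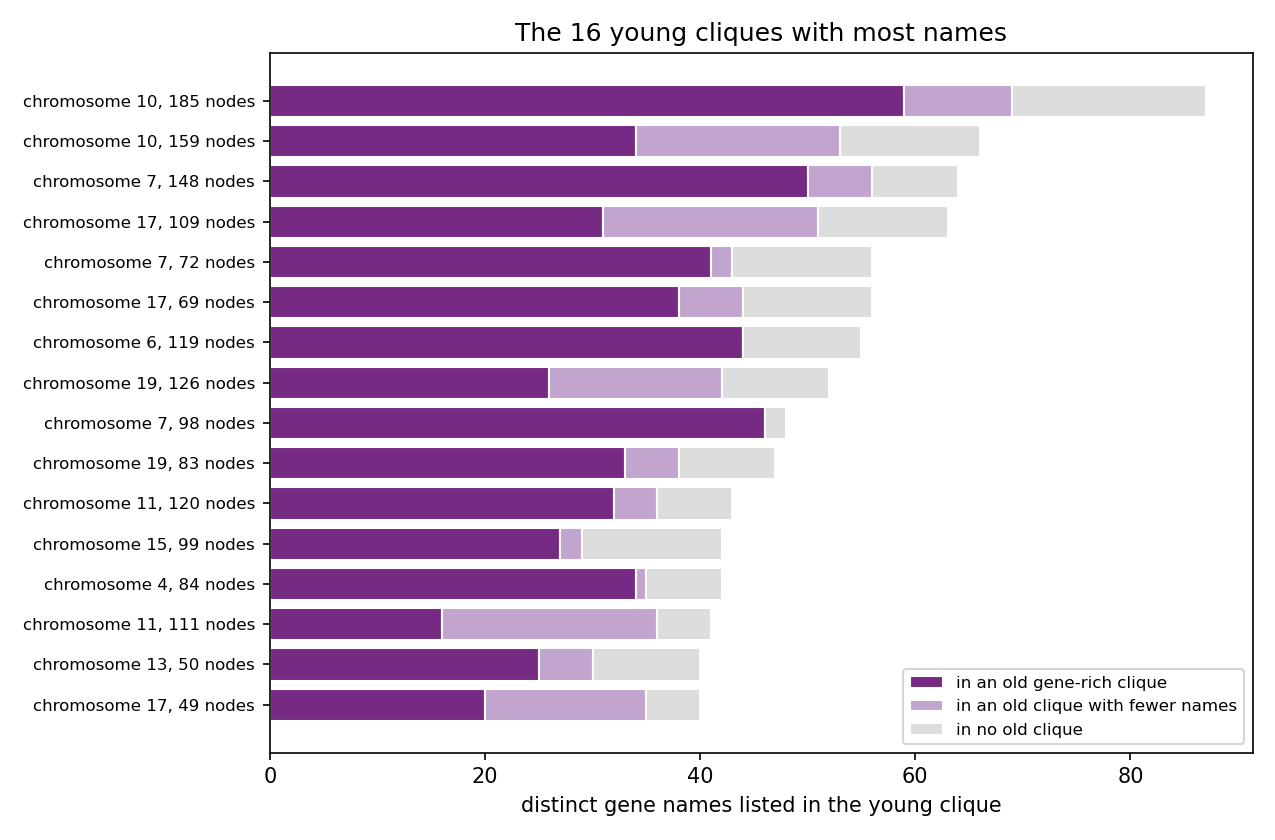
Distinct names of the 16 young cliques with most names, divided by where the old network lists them: in a gene-rich clique (dark purple), in a clique with fewer names (light purple) or in none (grey). The young clique of 87 names has 59, 10 and 18 in these classes, and the clique of 55 names on chromosome 6 has none in the middle class.

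Gene lists for liver function and for housekeeping were read against the shares of protein-coding names in gene-rich cliques, 29.7% young and 17.1% old. Members of a list often lie next to each other in a tandem family and then share a clique, so they are not independent of each other. Within housekeeping, 15 of 21 listed genes of oxidative phosphorylation were in a young gene-rich clique and 8 of 18 in an old one. The 8 were all in a young one too, and they include Atp5d, Ndufs7 and Uqcr11. Of the 7 in a gene-rich clique at the young age alone, 4 were listed in no old clique: Atp5b, Ndufs8, Cyc1, the haem-bearing cytochrome c1 of complex III, and Ndufs3. That is 4 of the 15, beside 499 of 2537 (19.7%) for all protein-coding names of young gene-rich cliques. This share is also the background for the same count in the lists below. The last node of an old clique, ending at chr15:76350000, overlapped part of Cyc1 (chr15:76343513-76346260). Genes of the mitochondrial ribosome had 13 of 19 in the young and 7 of 16 in the old network, and those of the cytosolic ribosome 14 of 24 and 11 of 22. Of the latter, 10 were in a gene-rich clique at both ages, among them Rps15, Rps2 and Rpl13a. Genes of RNA polymerase II and splicing had 12 of 17 and 10 of 17, of which 9 were shared, with Polr2a, the catalytic subunit, in cliques of 33 and 16 names. Histone genes had 10 of 12 and 5 of 10, and proteasome and ubiquitin genes 9 of 20 and 5 of 18, with Psme1 and Psme2, the proteasome activators, in cliques of 28 and 26 names.

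Interferon and MHC class I genes had 12 of 14 listed members in young gene-rich cliques and 6 of 17 in old ones. Of these, 4 were gene-rich at both ages: Irf3, Isg15, H2-K1 and Tapbp. Of the 8 gene-rich at the young age alone, Ifi35 and Usp18 were in no old clique. Irf9, the DNA-binding partner of Stat2, went from a clique of 28 names to one of 4, and Irf1 from 23 names to 9. H2-D1 and Oasl2, an oligoadenylate synthetase-like gene, were in an old gene-rich clique and in no young clique. That is 2 of the 6, beside 99 of 1208 (8.2%) for all protein-coding names of old gene-rich cliques. Complement and acute phase genes had 12 of 23 and 10 of 21, and all 10 of the old were gene-rich at both ages. They include C2, C4b, Cfb, C1ra and C3, described above, and the serum amyloid genes Saa1, Saa2 and Saa4, which lay beside Ldha in 34 young nodes with 18 names and 29 old nodes with 17 names on chr7:46710001-47010000. Stress and immediate early genes had 9 of 21 and 7 of 23, with 6 at both ages, among them Gadd45b, Junb and Cdkn1a, the cell cycle inhibitor p21. Atf3, of the stress response, went from a clique of 27 names to one of 3.

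Among hepatocyte functions, xenobiotic genes had 10 of 19 in young and 4 of 15 in old gene-rich cliques. The 4 were Gstp1, Cyp2d22, Ugt1a1, which conjugates bilirubin, and Gstm1. The clusters around them were smaller at the old age: 37 and 18 names for the Cyp2d cluster on chr15:82310001-83045000, 30 and 15 for the Ugt1a cluster on chr1:87755001-88310000, and 26 and 15 for the Gstm cluster on chr3:107610001-108215000. Cyp2d9 and Cyp3a13 were listed in no old clique, and Ces2a, a carboxylesterase, went from a clique of 27 names to one of 2. The first node of an old clique, at chr5:137890001, overlapped part of Cyp3a13 (chr5:137892933-137925610) all the same. Plasma protein genes had 9 of 23 and 6 of 21, and the 6 (Apoc1, Apoe, Apoa1, Apoa2, Apoc3 and Serpinc1, which encodes antithrombin) were gene-rich at both ages. F2, which encodes prothrombin, was in a young clique of 23 names and in no old clique, and Plg, plasminogen, was in cliques of 20 and 4 names.

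The remaining metabolic lists lay near the background. Hepatocyte transcription factors had 7 of 24 and 3 of 23, lipid synthesis genes 6 of 23 and 3 of 21, fatty acid oxidation genes 6 of 18 and 2 of 14, and glucose metabolism genes 5 of 19 and 2 of 18. Hnf4a, the central hepatocyte regulator, was listed in a young clique of 17 names and in no old clique. The old match of that young clique began at chr2:163525001, inside the Hnf4a gene (chr2:163506811-163572907). Part of the gene was thus in an old node without its name being listed. Fasn, the fatty acid synthase, was in cliques of 43 and 37 names, and Fads1 and Fads2, the fatty acid desaturases, in cliques of 16 and 11.

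**Figure D5:**
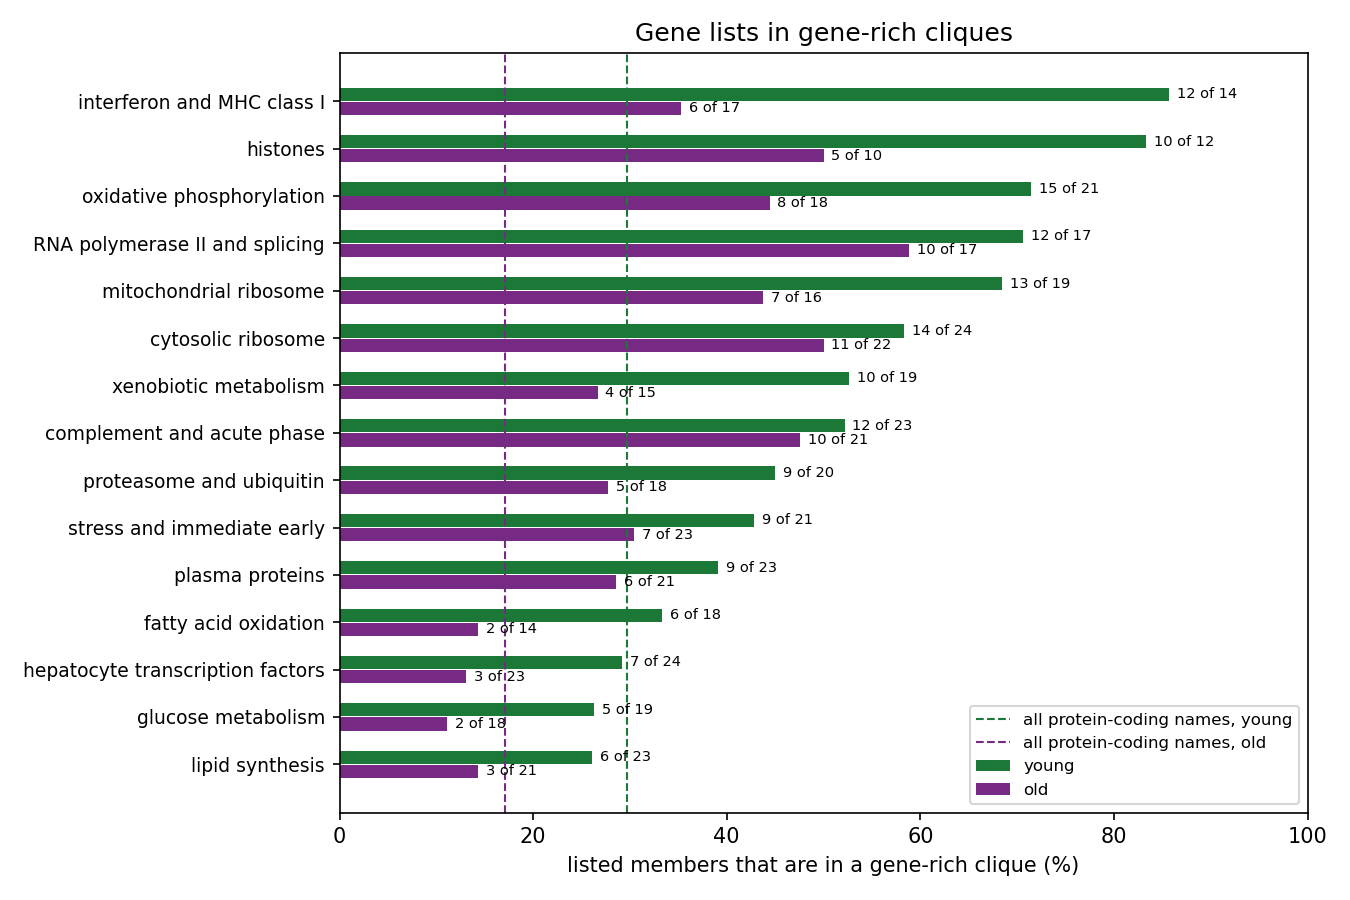
Share of the listed members of each gene list that are in a gene-rich clique, in the young (green) and old (purple) network, with counts beside the bars. Dashed lines are the shares among all protein-coding names, 29.7% young and 17.1% old, and the young bars run from 5 of 19 and 6 of 23 at the bottom to 12 of 14 at the top.

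Markers of other liver cells were listed in numbers that differed by cell type. Many genes are listed in neither network: 9802 of the 17492 protein-coding promoters of the table were in no clique of either age. The marker counts are small and were not tested against this background. None of the 14 markers of Kupffer cells, the macrophages of the liver, was listed in either network. Of 13 endothelial markers 5 were listed young and 1 old, with Egfl7 in a young gene-rich clique, and of 12 stellate cell markers 1 and 0. Of 11 cholangiocyte markers 5 and 3 were listed, and Krt8, Krt18 and Muc1 were in young gene-rich cliques and in none that was gene-rich at the old age, although Krt8 and Krt18 are also made by hepatocytes. Of 14 lymphocyte markers 2 and 3 were listed, with Cd4 in the clique of C1ra at both ages. The part of other cell types in the differences between ages was not tested.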

How the data were processed

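H3K27ac Hi-ChIP libraries from hepatocytes of young and old mice (12 libraries, 6 per age) were mapped with Bowtie2 and HiC-Pro to mm10 (GRCm38), per the submitters' processing notes. The deposited tables hold, for each age, the cliques with their counts of nodes, their gene names and node numbers, and the position of each node. Per the file headers the node number is a whole-number count, and the lists of nodes had that length in every clique. For the loop caller, its thresholds, the clique method and the window that assigns a gene to a node, no details stand in the sources used here. No value per library is in these tables, so 1 network per age was compared and no test was made.

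Distinct names were counted after splitting on semicolons, and cliques with 15 or more on autosomes were kept. The Jaccard index was taken over bins. Names were matched to RefSeq (GRCm38.p6), which found 12722 of 15937 autosomal names, with 11 members of gene lists found under another symbol. The motif windows came from the RefSeq promoter table. All values were computed with Python 3.11.15, pandas 2.3.3 and numpy 2.4.6, and the matching code was tested on simulated data. The members, the gene lists and the comparisons were chosen with earlier results of these data known. Named cliques were the 8 with most names per age, the 3 highest and lowest in Jaccard index and in nodes per name, and the 3 that lost and gained most names against their best match, each with up to 6 genes. Each list gave up to 3 members by rule. Further genes and cliques (the lists' exceptions, the tandem families, the clique without protein-coding names) were chosen after their values were seen. The clique with a low index on chromosome 18 is not described here. Alternatives were other minimum numbers of names, protein-coding names only, names without short or unnamed transcripts, the X chromosome, sizes relative to the age's mean, inner spans, adjacent bins, other Jaccard thresholds, an index over names, and another definition of like size. The pairs in which neither clique was gene-rich were added after the other values were seen.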

Additional observations from a re-analysis of the deposited data

How the results depend on the processing

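No paired analysis was possible because there was 1 pooled network for each age, and for the same reason no replicate could be left out. With 10 or more names there were 349 young and 193 old cliques, and with 20 or more 93 and 39; counting protein-coding names only there were 68 and 30, and without microRNA, snoRNA, Gm and Rik names 73 and 35. Young cliques outnumbered old ones in each of these settings. Relative to the mean clique size of the age, nodes per name were 0.234 young and 0.287 old, which turns the order of the ages; the mean sizes themselves differ. Over protein-coding names the old value was 2.60. The share of nodes present at the other age was 66.2% in young cliques with 10 or more names and 85.7% in old cliques with 20 or more; with an adjacent bin also accepted it was 87.5% and 95.4%. A best Jaccard index of 0.5 or more was found for 32.3% of young cliques with 20 or more names. With a threshold of 0.3 the shares were 80.8% young and 89.2% old, with 0.7 they were 5.99% and 10.8%, and with the index over gene names 57.5% and 74.3%. The old share was the higher in each. For cliques of like size with fewer names, the share of nodes present at the other age was 64.1% young and 89.5% old by classes of node number and 65.4% and 90.7% in the middle range of node numbers. Depth sets what a network can hold and was not analysed here, so a clique, node or name that is missing at 1 age was not detected in that network, which does not show that it is absent.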
